A study of Mus musculus with 18 samples.

Results

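Nonsense-mediated mRNA decay was followed through 9 of its factors, *Upf1*, *Upf2*, *Upf3a*, *Upf3b*, *Smg1*, *Smg5*, *Smg6*, *Smg8* and *Smg9*. They were given by symbol and matched to the Ensembl identifiers of the deposited counts, so they are 9 of the 22524 genes listed. All 9 passed the filter on low counts, among 13353 genes tested, and every one of them had at least 230 counts in every mouse. The filter therefore did not select on the difference between genotypes.

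Liver RNA came from 10 female *Rps2*-A226Y mice (A226Y) and 8 female wild-type mice (WT), with 1 library per mouse, all on a C57BL/6 background and 15 months old. A226Y mice are heterozygous for a knock-in allele of *Rps2*, a gene for a protein of the small ribosomal subunit. The allele was designed to make translation error-prone. The authors report more misreading and more stop-codon read-through of reporters with this mutation in a cultured cell line. Both groups carry the CMV-Cre transgene, a ubiquitously driven Cre recombinase that removes a transcriptional stop cassette from the mutant allele. According to the methods, this removal was never complete, so that the A226Y livers are mosaics of cells that express the mutant protein and cells in which the targeted allele stays silent. The comparison asks whether the factors that act on transcripts with misplaced stop codons have other mRNA levels in such livers. The counts show mRNA only and say nothing of the phosphorylation or activity of the proteins.

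Nonsense-mediated decay removes transcripts on which a ribosome terminates too early or too far from the normal end. UPF1 is the RNA helicase at the centre of the pathway, and UPF2 with UPF3A or UPF3B links it to exon junction complexes that remain downstream of such a stop codon. SMG1 is the kinase that phosphorylates UPF1, and SMG8 and SMG9 form a complex with it and restrain it. SMG5 and SMG6 bind phosphorylated UPF1. SMG6 cuts the transcript near the stop codon, and SMG5 brings in deadenylation and decapping. Several transcripts of the pathway are themselves substrates of it in mammalian cells, which ties their mRNA levels to its activity.

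Since the pathway is triggered where translation ends, and the allele was designed to affect termination, the normal stop codons of the 9 factors are shown first. Each line holds 12 bases before the stop codon, the stop codon in capitals and 6 bases after it, 5′ to 3′ on the coding strand, from the principal protein-coding transcript of the GENCODE M21 annotation on GRCm38.
Upf1: ctgtcccagtacTAGaaggta
Upf2: gggaggagacgtTGAtccagc
Upf3a: cacaaggcccagTAGaccatg
Upf3b: ggaggagaggagTGAgaagtc
Smg1: acagcttgggtgTGAatggca
Smg8: gcagttacacaaTGAgtcttc
Smg9: cgcctgctggccTGAtgccga
Smg5: aaggagattggtTGAgactgg
Smg6: gcccaggtgggcTGAggggac
Of the 9 factors, 7 end in TGA, 2 end in TAG (*Upf1* and *Upf3a*) and 0 end in TAA. Among 13109 tested genes with an annotated stop codon, the shares were 51.3% for TGA, 23.4% for TAG and 25.3% for TAA. TGA followed by C, a context known for frequent read-through, ends 11.7% of these genes and 0 of the 9 factors. These letters describe the reference transcripts, and read-through itself was not measured in the RNA counts.

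The targeted gene was examined first. *Rps2* had between 46.9 and 83.0 CPM in A226Y mice (median 72.5; CPM are counts scaled by TMM to a common library size) and between 103.9 and 143.1 CPM in WT mice (median 109.2), so all 10 A226Y mice lay below every WT mouse. On the log2 scale the difference was −0.73 ± 0.11 (standard error; adjusted p = 0.000772, edgeR's quasi-likelihood test), with transcripts of both alleles counted together. Total counts ran from 23850565 to 62126131 in A226Y and from 25869192 to 34918732 in WT mice, and the lowest count of any factor was 230. Counting error at the median count was 2.05% for *Upf1* and 5.88% for *Smg9*, beside coefficients of variation between WT mice of 6.60% and 5.30%. Labels do not name a batch. A226Y mouse 29 had the highest dependence on GC content of the 18 mice (0.18 log2 CPM per 10 percentage points), apart from the other A226Y mice (−0.098 to −0.003) but close to WT mouse 24 (0.15), and fits without it are given for *Smg6*, *Gadd45g* and *Cdkn1a*.

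None of the 9 factors passed the test between A226Y and WT livers at an adjusted p of 0.05, in either direction. Of all tested genes, 14.3% passed it (7.27% higher and 7.03% lower in A226Y). At an unadjusted p of 0.05, 4 factors had higher levels in A226Y (*Smg1*, *Upf3b*, *Smg6* and *Smg5*) and 0 had lower levels, where 14.9% of all tested genes were higher by that criterion. The log2 fold change was positive for 7 of the 9 factors and for 49% of all tested genes. Its median was 0.10 over the factors and −0.004 over all genes tested. The two-sided exact permutation test of log2 CPM gave an adjusted p under 0.05 for none of the 9 factors, against 13.1% of all tested genes. These counts over 9 genes are a description beside the background, and no test was made on them. In liver tissue, a change in the RNA of each cell cannot be told apart from a change in the number of cells that carry it.

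The helicase gene *Upf1* (chromosome 8, 70331525 to 70353278, minus strand; all positions are on GRCm38) is the first member, and its principal transcript has 24 exons and codes for 1124 amino acids. In A226Y mice it ranged from 60.9 to 86.5 CPM (median 74.1), and in WT mice from 71.6 to 86.0 CPM (median 73.5). The ranges overlapped, with 4 A226Y mice below and 1 above all WT mice. The fold change was −0.03 on the log2 scale (standard error 0.065, adjusted p = 0.774), and the 95% confidence interval of the difference ran from −10.98% to 7.27%. The exons of *Upf1* share 131 bases (2.84%) with *Cers1* and its neighbour *Gdf1*, from which its reads cannot be separated there. The helicase gene was also the more variable in A226Y mice, with a coefficient of variation of 10.7% against 6.60% in WT mice, a difference that was not tested. The other factors were too, except *Smg1* (12.55% against 14.6%) and *Smg5* (10.9% against 11.1%).

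*Upf2* codes for the adaptor that bridges UPF1 and UPF3, and lies on chromosome 2 from 5951469 to 6056703 on the plus strand, with 22 exons. It ranged from 17.5 to 25.3 CPM in A226Y (median 21.5) and from 17.5 to 22.5 CPM in WT mice (median 21.004). Only 2 A226Y mice exceeded the WT range. A log2 difference of 0.10 (standard error 0.066, adjusted p = 0.345) was measured, with an interval from −2.86% to 17.5%.

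*Upf3a* and *Upf3b* are paralogues that both bind UPF2 and the exon junction complex. *Upf3a* lies on chromosome 8 from 13785615 to 13799193 on the plus strand and *Upf3b* on the X chromosome from 37091678 to 37110322 on the minus strand. *Upf3a* had 14.01 to 21.2 CPM in A226Y (median 16.3) and 13.3 to 17.4 CPM in WT mice (median 15.4). *Upf3b* had 12.4 to 19.05 CPM in A226Y (median 15.4) and 12.002 to 15.8 CPM in WT mice (median 13.6). For *Upf3a* 3 A226Y mice and for *Upf3b* 4 A226Y mice lay above every WT mouse, and for each gene 1 WT mouse lay below every A226Y mouse. The other mice of both genotypes overlapped. In log2 units the fold change was 0.10 for *Upf3a* (standard error 0.074, adjusted p = 0.370) and 0.17 for *Upf3b* (standard error 0.076, unadjusted p = 0.0366, adjusted p = 0.139, edgeR). The interval of *Upf3b* ran from 0.821% to 25.8%, without correction for the number of genes tested. The log2 ratio of *Upf3b* to *Upf3a* was −0.12 ± 0.14 (SD, n = 10) in A226Y and −0.18 ± 0.16 (SD, n = 8) in WT mice, a difference smaller than the spread between mice.

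*Smg1* had the largest difference of the 9 in the reported comparison, though not with an offset for length or GC content. The kinase gene lies on chromosome 7 from 118131308 to 118243670 on the minus strand, and its principal transcript has 15557 bases, 63 exons and 3658 codons. It ranged from 31.9 to 47.0 CPM in A226Y mice (median 40.2) and from 26.7 to 42.0 CPM in WT mice (median 32.3). Relative to the WT mean, 9 A226Y mice were higher, 4 of them above every WT mouse, while 4 WT mice lay below every A226Y mouse. The log2 fold change was 0.26 (standard error 0.088), a difference of 19.99% with an interval from 5.66% to 36.3%. Its p was 0.00725 and its adjusted p 0.0503 by edgeR's quasi-likelihood test, which just missed the threshold, and the exact permutation test gave p = 0.0122 (adjusted over all tested genes, 0.0706).

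The call for *Smg1* turned on small choices. It passed with DESeq2 (adjusted p = 0.0339), limma-voom (0.0473), the likelihood ratio test (0.0386), library size as the only scaling (0.0219) and the stricter filter (0.0493). It also passed when A226Y mouse 5, 18 or 23 or WT mouse 6 or 33 was left out, and WT mouse 33, which held the highest WT value, gave the lowest of these adjusted p values (0.0206, log2 fold change 0.32). Without WT mouse 14, which held the lowest WT value, the log2 fold change was 0.22 and the adjusted p 0.110. *Smg1* did not pass with the GC offset either (0.22, adjusted p = 0.104, edgeR), nor with surrogate variables as covariates (0.13, adjusted p = 0.394).

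*Smg8* and *Smg9* code for the partners that hold the kinase in check. How their differences compare with that of *Smg1* was not tested, and with an offset for transcript length the log2 fold changes of *Smg1* and *Smg8* were 0.10 and 0.08. *Smg8* lies on chromosome 11 from 87077732 to 87086774 on the minus strand, with only 4 exons, and *Smg9* on chromosome 7 from 24399619 to 24422778 on the plus strand, with 14 exons. *Smg8* had 8.63 to 11.8 CPM in A226Y (median 9.77) and 8.56 to 10.8 CPM in WT mice (median 9.84). *Smg9* had 8.34 to 10.4 CPM in A226Y (median 9.14) and 8.70 to 10.1 CPM in WT mice (median 9.32). The ranges of the genotypes overlapped for both genes. The log2 fold change was 0.04 for *Smg8* (standard error 0.073, interval −7.73% to 13.99%, adjusted p = 0.782) and −0.003 for *Smg9* (standard error 0.058, interval −8.20% to 8.44%, adjusted p = 0.978). *Smg9* was the least variable factor in A226Y mice, with a coefficient of variation of 7.48%. The log2 ratio of *Smg1* to the mean of its 2 partners was 2.05 ± 0.18 (SD, n = 10) in A226Y and 1.80 ± 0.22 (SD, n = 8) in WT mice, with ranges of 1.73 to 2.32 and 1.51 to 2.12. That ratio was chosen after the values were known and was not tested.

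*Smg5* and *Smg6* code for the proteins that carry out decay on phosphorylated UPF1. *Smg5* lies on chromosome 3 from 88336260 to 88362338 and *Smg6* on chromosome 11 from 74925823 to 75164448, both on the plus strand, with 22 and 19 exons. *Smg5* had 27.9 to 42.6 CPM in A226Y (median 40.8) and 30.4 to 42.5 CPM in WT mice (median 34.7). A226Y mouse 15 was the lowest of all 18 mice for *Smg5*, whereas the other 9 A226Y mice exceeded the average of WT. Across all mice the log2 difference was 0.16 (standard error 0.076, unadjusted p = 0.0457, adjusted p = 0.159, edgeR). Without mouse 15 it was 0.21 and *Smg5* passed (adjusted p = 0.0252, edgeR).

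*Smg6*, the endonuclease gene, had 29.9 to 40.9 CPM in A226Y (median 37.3) and 30.9 to 35.97 CPM in WT mice (median 34.3). Here 7 A226Y mice lay above every WT mouse, more than for any other factor, and A226Y mouse 29 lay below every WT mouse. With all mice the log2 difference was 0.12 (standard error 0.052, unadjusted p = 0.0382, adjusted p = 0.143, edgeR). Without mouse 29 it was 0.15 and *Smg6* passed (adjusted p = 0.0254, edgeR), and it also passed with library size as the only scaling (0.16, adjusted p = 0.0429). *Smg6* shares 243 exonic bases (2.87%) with *Srr* and a predicted gene.

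**Figure D1:**
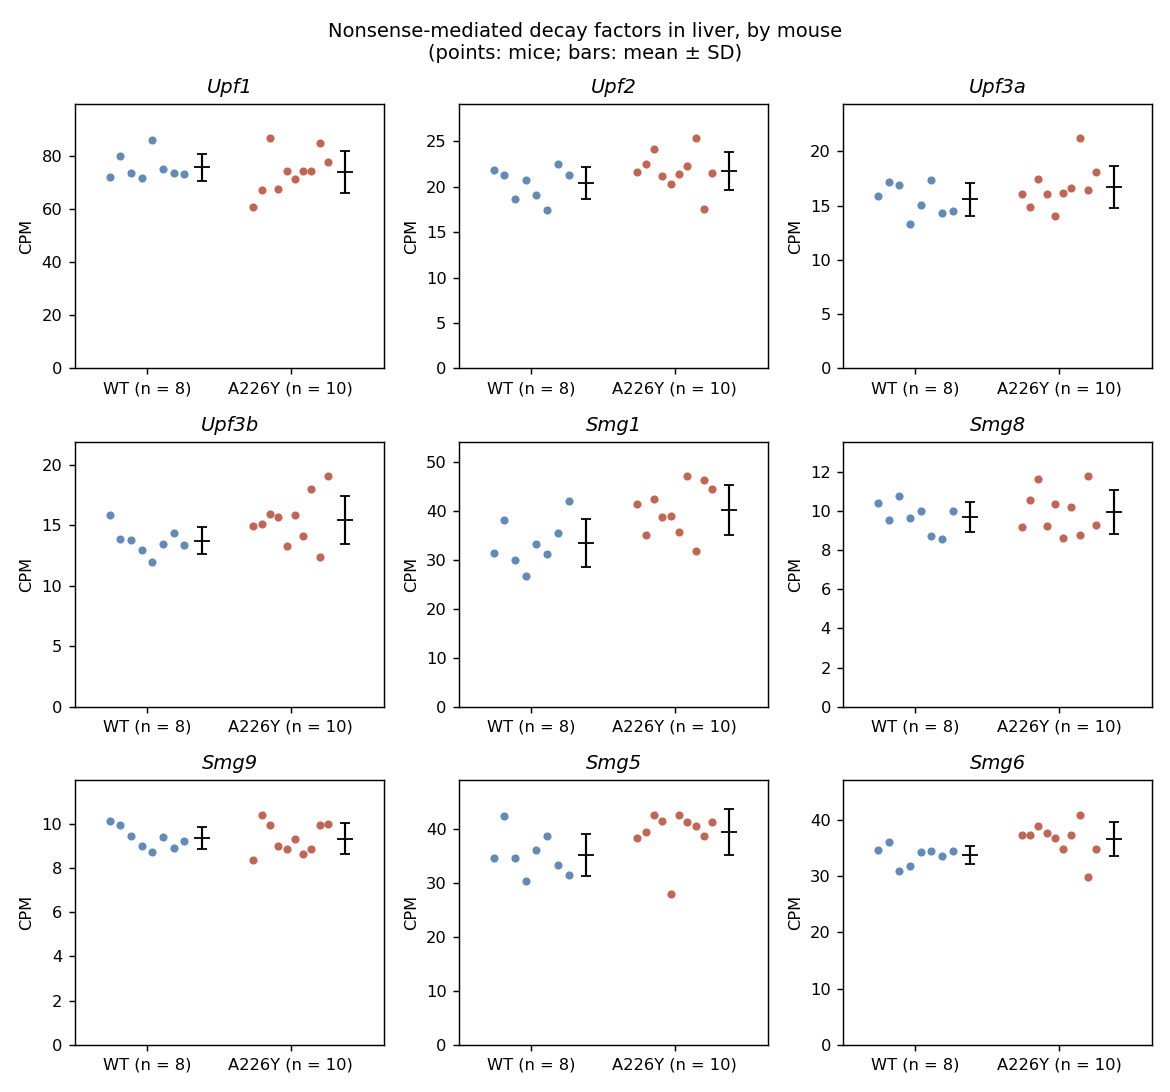
Level of each of the 9 factors in CPM (y axis, from 0) in WT (8 mice) and A226Y livers (10 mice); points are mice and bars are the mean ± SD. The genotypes overlap for every factor; A226Y mouse 15 is the low point for *Smg5* (27.9 CPM) and A226Y mouse 29 for *Smg6* (29.9 CPM).

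**Figure D2:**
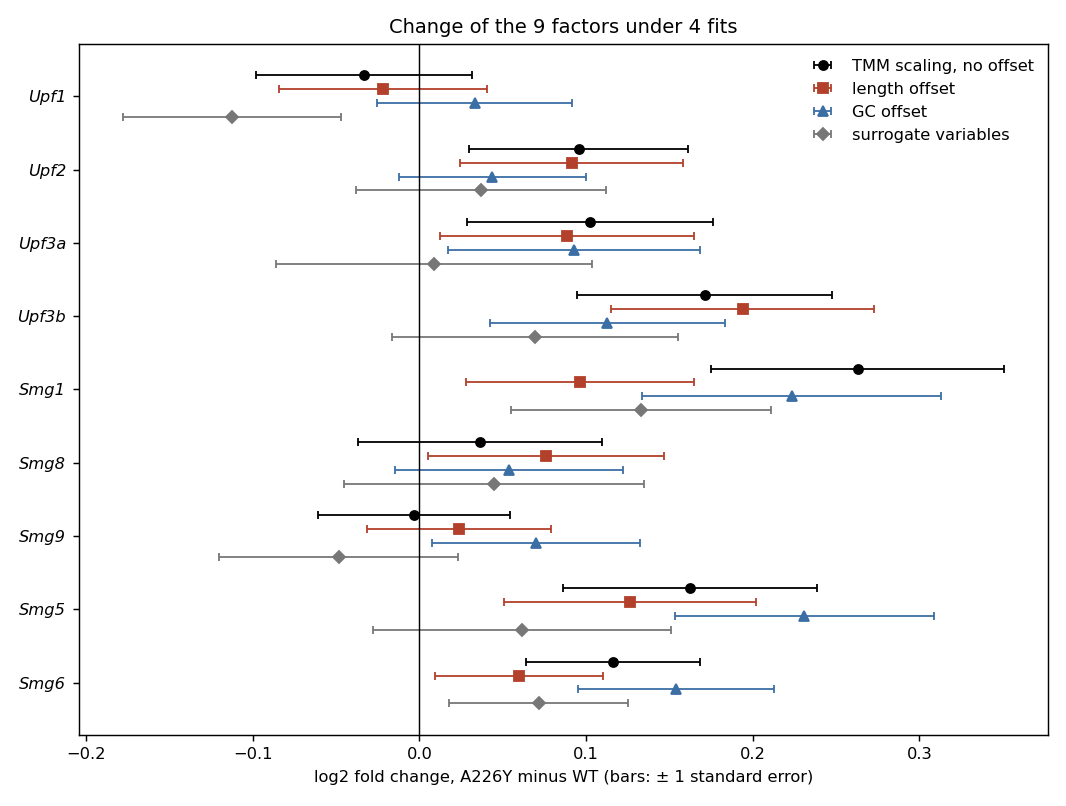
Log2 fold change of A226Y over WT (x axis) for the 9 factors (y axis) under 4 fits, with bars of ± 1 standard error. The value of *Smg1* moves from 0.26 without an offset to 0.10 with the length offset, while that of *Upf3b* is 0.17 and 0.19.

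Summed over the 9 factors, the level was 244.9 to 289.7 CPM in A226Y (median 262.2) and 226.1 to 268.4 CPM in WT mice (median 246.1). These sums overlapped. Divided by exonic length, *Upf1* was also the most abundant factor, with 16.4 ± 1.08 CPM per kb in WT mice (SD, n = 8). It was followed by *Smg5* (5.06 ± 0.56 CPM per kb), *Smg6* (3.99 ± 0.19), *Upf2* (3.72 ± 0.32), *Upf3b* (3.43 ± 0.28), *Smg8* (3.02 ± 0.24), *Upf3a* (2.65 ± 0.26) and *Smg9* (2.52 ± 0.13). *Smg1* had the lowest level per length, 1.396 ± 0.20 CPM per kb. The order was the same in A226Y mice, with *Upf1* (16.0 ± 1.71), *Smg5* (5.67 ± 0.62) and *Smg6* (4.33 ± 0.35) at the top and *Smg1* (1.68 ± 0.21) at the bottom. From *Smg6* down to *Smg9*, the mean ± SD ranges of neighbours overlapped, and the order of neighbours was not tested within mice. Some factors farther apart were separated. Over all 18 mice, the lowest values of *Smg6* (3.53 CPM per kb) and *Upf2* (3.19) lay above the highest value of *Smg9* (2.81). With the length of the longest transcript in place of all exons, *Upf1*, *Smg5* and *Smg6* stayed highest and *Smg1* lowest (2.15 CPM per kb in WT mice), while *Upf2* came below *Upf3a* and *Smg9* in WT mice.

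Transcript length differed between the genotypes in its relation to counts, and *Smg1* is one of the longest genes. For each library, the slope of log2 CPM (relative to the mean of all mice) on log2 exonic length was taken over the 13300 tested genes with a known length. It was 0.027 ± 0.026 per doubling of length in A226Y (SD, n = 10, range −0.002 to 0.078) and −0.034 ± 0.034 in WT mice (SD, n = 8, range −0.082 to 0.007). The difference had p = 0.000229 by a two-sided exact permutation test, and 7 of 10 A226Y mice lay above all WT mice. The GC slope, by contrast, differed with p = 0.0897 by the same exact test. The median log2 fold change of all tested genes climbed from −0.084 in the shortest of 10 bins of length to 0.119 in the longest. In the longest 20% of genes 16.1% were called higher, and in the shortest 20% only 3.12%.

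*Smg1*, with 23984 exonic bases, stood at the 99.7th percentile of length, in the longest bin, and its log2 fold change exceeded that bin's median by 0.14. *Smg6* (8453 bases) exceeded the median of its bin by 0.05 and *Smg5* (6956 bases) by 0.13. *Upf3b*, with 3999 bases at the 44.7th percentile, exceeded the median of its bin by 0.19, the largest excess of the 9, and for *Upf1* this difference was −0.02. With a length offset for each library, the log2 fold change was 0.10 for *Smg1* (adjusted p = 0.373), 0.06 for *Smg6* (0.462), 0.13 for *Smg5* (0.284) and 0.19 for *Upf3b* (unadjusted p = 0.0231, adjusted p = 0.114, edgeR). *Upf3b* was then the only factor with an unadjusted p under 0.05, where 14.2% of all tested genes were higher by that criterion. With the GC offset the log2 fold change fell to 0.11 for *Upf3b* (unadjusted p = 0.126, adjusted p = 0.305, edgeR), whereas it was 0.23 for *Smg5* (adjusted p = 0.0555), slightly above the 0.22 of *Smg1*. The median over the 9 factors was 0.09 with the offset. The offset removes whatever follows length in a library, whatever its source, so length and genotype cannot be told apart for the part it takes away from *Smg1*.

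**Figure D3:**
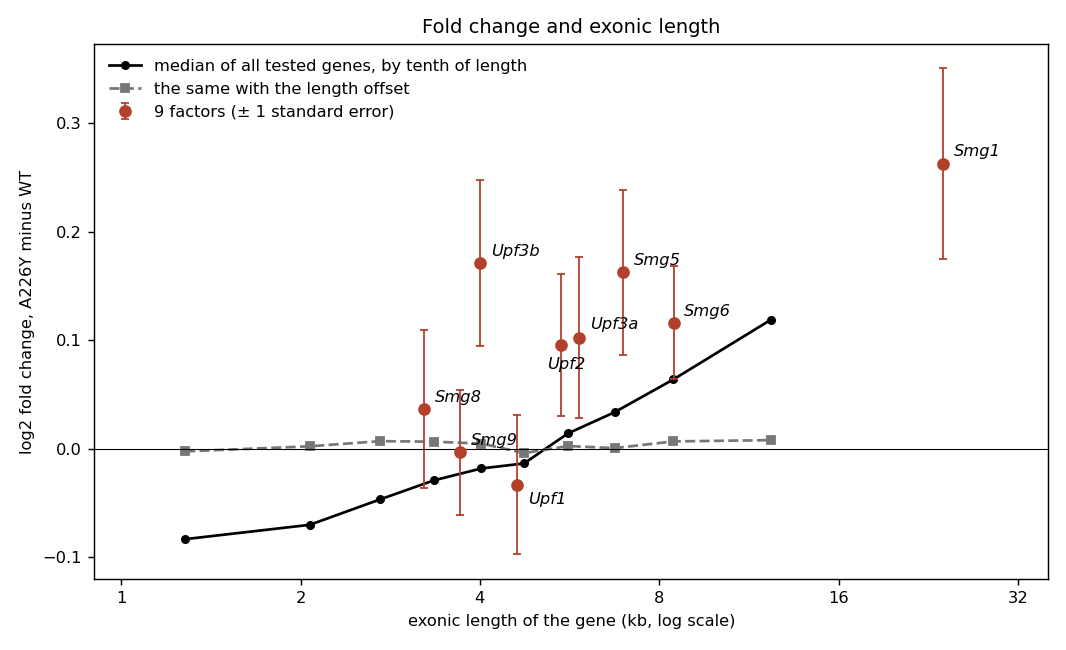
Log2 fold change of A226Y over WT (y axis) against exonic length in kb (x axis, log scale); the black line joins the medians of all tested genes in 10 bins of length, the grey line the same with the length offset, and red points are the 9 factors with ± 1 standard error. The medians climb from −0.084 to 0.119, and *Smg1* lies at the far right with 0.26.

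Within genotypes, the length slope and the factors were compared across the 18 mice after centring both on the mean of the genotype. *Smg1* had Pearson's r = 0.558 (permutation p = 0.0222, adjusted over the 9 factors 0.200) and Spearman's rho = 0.527 (permutation p = 0.0309, adjusted 0.225). Without the 2 mice farthest from the median slope, A226Y mouse 22 and WT mouse 14, r was 0.382. *Smg6* had r = 0.456 (permutation p = 0.0473, adjusted 0.213) and rho = 0.472 (permutation p = 0.0501, adjusted 0.225), and r = 0.428 without the same mice. The other 7 factors had r between −0.226 and 0.343. None of the 9 relations passed after adjustment.

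**Figure D4:**
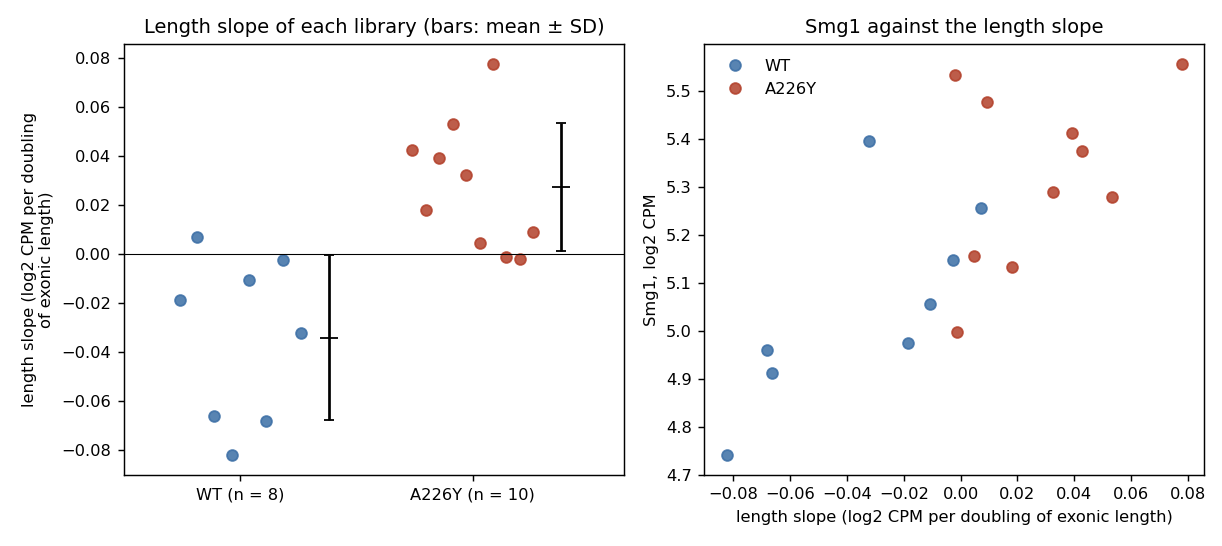
Left, the length slope of each library (y axis, log2 CPM per doubling of exonic length) in WT (8) and A226Y mice (10), with mean ± SD; right, *Smg1* in log2 CPM (y axis) against that slope (x axis), with WT in blue and A226Y in red. The slopes are −0.082 to 0.007 in WT and −0.002 to 0.078 in A226Y mice.

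Across the 18 mice, again centred on the genotype, the 36 pairs of factors had a median r of 0.165, and 22 pairs were positive. None passed after adjustment over the 36 pairs, the lowest adjusted permutation p being 0.121 for r and 0.0583 for rho. The highest r were those of *Upf2* with *Smg6* (r = 0.704, rho = 0.579), *Upf3a* with *Smg5* (r = 0.661, rho = 0.709) and *Upf2* with *Upf3b* (r = 0.614, rho = 0.565). Without the 2 mice farthest from the median of the first gene they were 0.644, 0.715 and 0.504. *Smg8* with *Smg9* had r = 0.436 (rho = 0.418). The lowest was *Upf3b* with *Smg8* (r = −0.438, rho = −0.364). The genes whose centred levels were most like the mean of the 9 factors over the 18 mice were *Zfp146* (r = 0.872), *Jagn1* (0.858), *Zc3h15* (0.818), *Hnrnph1* (0.815) and *1700030J22Rik* (0.798), given as a description of these libraries.

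The genes that work beside the 9 factors were read from 7 lists of partners and targets, 91 genes in all, of which 86 were among the tested genes. Of these, 12 rose and 5 fell in A226Y livers (19.8%, beside 14.3% of all tested genes). With the length offset 13 passed, all of them among the 17, where 11.7% of all tested genes passed. With surrogate variables as covariates 2 passed, *Rnps1* and *Pih1d1*, where 1.86% of all tested genes did. Apart from surrogate variables, 7 of the 17 kept their call under every alternative, mice left out singly included (*Abce1*, *Etf1*, *Gadd45a*, *Mov10*, *Ncbp1*, *Rnps1* and *Sec13*). *Gspt2* was called in all the same fits but that with 10 counts in every library, a filter its low counts did not meet. Under at least 1 alternative, 14 genes passed that had not passed in the reported comparison, among them *Ruvbl2* (−0.16, adjusted p = 0.118), *Map3k14* and *Dis3l* without A226Y mouse 29.

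Among 12 other factors of the pathway, 4 rose, 1 fell and 7 did not pass, where 7.27% of all tested genes rose and 7.03% fell. *Ncbp1*, the large subunit of the nuclear cap-binding complex, rose by 0.24 on the log2 scale (standard error 0.066, adjusted p = 0.0186), and *Ncbp3*, an alternative cap-binding partner, by 0.20 (standard error 0.049, adjusted p = 0.0101). *Ncbp3* has 17240 exonic bases, and with the length offset its log2 fold change was 0.07 (adjusted p = 0.438). *Sec13* rose by 0.29 (standard error 0.072, adjusted p = 0.0118) and *Nbas* by 0.20 (standard error 0.064, adjusted p = 0.0441), both known for roles at the endoplasmic reticulum as well as in a branch of the decay pathway there. With single mice left out, *Nbas* kept its call without A226Y mouse 3, 5, 22 or 29 or WT mouse 4 or 33, and lost it without any other mouse (highest adjusted p 0.0913), and it also lost it with the length offset (0.227), upper quartile scaling and the filter of 1 count in any library. *Mov10*, an RNA helicase that associates with UPF1, fell by 0.60 (standard error 0.13, adjusted p = 0.0060), from 13.4 to 26.3 CPM in WT mice to 8.22 to 15.2 CPM in A226Y mice, 8 of which lay below all WT mice.

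Of 13 genes of the exon junction complex and its periphery, *Rnps1* fell and 12 did not pass, where 14.3% of all tested genes passed in either direction. *Rnps1* codes for an RNA-binding protein of the complex that can activate decay. It had 3.02 to 4.36 CPM in A226Y (median 3.88) and 5.02 to 6.32 CPM in WT mice (median 5.53). All 10 A226Y mice lay below every WT mouse, and the log2 difference was −0.55 (standard error 0.079, adjusted p = 0.000701, edgeR). It lies on chromosome 17 from 24414565 to 24425901, 292.2 kb from *Rps2*. The targeted allele was made in embryonic stem cells of another mouse strain and backcrossed to C57BL/6, and flanking DNA of the first strain can stay linked to such an allele. Its part in the value of *Rnps1* was not tested. The core subunits *Eif4a3* (0.02), *Magoh* (0.07), *Rbm8a* (0.19) and *Casc3* (0.11) were not called, with adjusted p = 0.850, 0.577, 0.157 and 0.250.

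Of 8 genes of translation termination and poly(A) binding, 4 rose and 0 fell (7.27% and 7.03% of all tested genes), and the list had a median of 0.14 (log2). *Etf1*, which codes for the release factor eRF1 that reads all stop codons, had 130.1 to 163.6 CPM in A226Y and 106.2 to 140.2 CPM in WT mice, and 5 A226Y mice lay above all WT mice. It rose by 0.25 (standard error 0.063, adjusted p = 0.0146), and by 0.27 with the length offset (adjusted p = 0.0135). *Abce1*, which splits ribosomes after termination, rose by 0.31 (standard error 0.067, adjusted p = 0.00594). *Gspt2*, one of the genes for the partner GTPase eRF3, rose by 1.73 (standard error 0.35, adjusted p = 0.00444) at a very low level of 0.34 to 1.76 CPM in A226Y and 0.12 to 0.51 CPM in WT mice. The abundant eRF3 gene, *Gspt1*, had a log2 fold change of 0.12 (adjusted p = 0.152). *Paip1*, a partner of the poly(A)-binding protein, rose by 0.165 (standard error 0.051, adjusted p = 0.0371), but kept its call in only 8 of 18 fits that left out 1 mouse, those without A226Y mouse 3, 5, 15, 18 or 29 or WT mouse 6, 24 or 28 (highest adjusted p 0.0718). It also lost the call with the GC offset (0.08, adjusted p = 0.275), the likelihood ratio test and the filter of 1 count in any library.

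In the list of decapping and 5′ decay, downstream of the factors, 1 of 15 genes rose, beside 7.27% of all tested genes. It was *Patl1*, a decapping activator (0.19, standard error 0.062, adjusted p = 0.0438), which, with single mice left out, kept its call only without A226Y mouse 15, 23 or 29 or WT mouse 6, 24 or 28 (highest adjusted p 0.0899). *Patl1* also lost the call with the GC offset (0.17, adjusted p = 0.0719), with limma-voom, with the filter of 1 count in any library and with surrogate variables. *Lsm6*, a subunit of the ring that binds decapping substrates (−0.28, adjusted p = 0.0582), passed as lower with DESeq2, the likelihood ratio test and the GC offset, and without WT mouse 6, 24 or 28, and *Lsm2* of the same ring (−0.23, adjusted p = 0.0917) passed without WT mouse 6 or A226Y mouse 32. *Xrn1*, the exonuclease that degrades the 3′ fragment after SMG6 has cut, had a log2 fold change of 0.15 (adjusted p = 0.178), and 0.01 with the length offset. None of 14 tested genes of the exosome and the SKI complex passed by edgeR's test, beside 14.3% of all tested genes in either direction. The smallest p values there were those of *Dis3l* (−0.19, adjusted p = 0.0532) and *Dis3* (0.25, adjusted p = 0.0765), catalytic subunits of the exosome. *Dis3l* passed with DESeq2, upper quartile scaling and the filter of 10 counts in every library, and without A226Y mouse 5 or 29 or WT mouse 6 or 33. *Dis3* passed with library size only and without WT mouse 6, and *Exosc9* (0.33, adjusted p = 0.0830) passed without A226Y mouse 5.

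SMG1 belongs to the phosphatidylinositol 3-kinase-related kinases, which depend on the TTT chaperone complex. Of 10 genes of this family and its chaperones, *Atr*, the kinase of replication stress, rose by 0.31 (standard error 0.10, adjusted p = 0.0451) and *Pih1d1*, a chaperone subunit, fell by 0.22 on the log2 scale (standard error 0.063, adjusted p = 0.0268), beside 14.3% of all tested genes that passed. Of the other kinases of the family, *Mtor* (0.25), *Prkdc* (0.28), *Atm* (0.18) and *Trrap* (0.10) had positive values that did not pass, with adjusted p from 0.0765 to 0.422. With the length offset their log2 fold changes were 0.17, 0.18, 0.10 and −0.06, so that of *Trrap* changed its sign. *Atr* has 23629 exonic bases, nearly as many as *Smg1*, and with the length offset its log2 fold change was 0.14 (adjusted p = 0.272). *Pih1d1* had −0.14 with the offset (adjusted p = 0.129). With single mice left out, the call of *Atr* held only without A226Y mouse 5, 15 or 29 or WT mouse 6, 28 or 33 (highest adjusted p 0.0938), and that of *Pih1d1* was lost without WT mouse 24 (0.0548). Both calls were also lost with the GC offset, that of *Atr* with the filter of 1 count in any library, and that of *Pih1d1* with library size only. *Mtor* passed with library size only and without WT mouse 6 or 33, and *Prkdc* with library size only and without A226Y mouse 5 or WT mouse 13. Of the TTT complex, *Telo2* had −0.24 (adjusted p = 0.140), *Tti1* 0.04 (adjusted p = 0.792) and *Tti2* 0.01 (adjusted p = 0.902) by edgeR's test. *Telo2* lies on chromosome 17, as does *Rps2*, and had −0.29 with the length offset (adjusted p = 0.0855).

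Transcripts described elsewhere as substrates of the pathway did not move together. Of 18 listed, 14 were tested, and 2 rose, 2 fell and 10 did not pass (14.3% of all tested genes passed), the median being −0.002 (log2). *Gadd45a*, a stress-induced gene often used as a marker of the pathway, fell by 0.77 (standard error 0.20, adjusted p = 0.0142), from 4.13 to 10.01 CPM in WT to 2.67 to 6.1997 CPM in A226Y mice. *Chac1*, which degrades glutathione, fell by 1.10 (standard error 0.31, adjusted p = 0.0234), a call that was lost without WT mouse 13 or 33 (highest adjusted p 0.0539). *Gadd45g* rose by 1.48 (standard error 0.46, adjusted p = 0.0368) and *Cdkn1a*, the cell cycle inhibitor p21, by 1.4004 (standard error 0.46, adjusted p = 0.0457).

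Both of these increases were largest in A226Y mouse 29, with 158.0 CPM for *Gadd45g* and 138.3 CPM for *Cdkn1a*, where the highest WT values were 21.1 and 19.5 CPM. Without mouse 29 the log2 fold change was 0.83 for *Gadd45g* (adjusted p = 0.0440) and 0.75 for *Cdkn1a* (adjusted p = 0.0654). With single mice left out, *Gadd45g* lost its call without A226Y mouse 32 or WT mouse 14, 21, 24 or 28, and *Cdkn1a* kept its call only without A226Y mouse 3, 5, 15 or 23 (highest adjusted p 0.0739 and 0.0903). Both genes also lost the call with limma-voom (adjusted p = 0.102 for *Gadd45g* and 0.0745 for *Cdkn1a*) and with surrogate variables, and *Cdkn1a* lost it with the filter of 1 count in any library (adjusted p = 0.0536). *Cdkn1a* lies 4369 kb from *Rps2* on chromosome 17. The 10 substrates that did not pass had log2 fold changes from −0.59 for *Atf3* (adjusted p = 0.198) to 0.72 for *Asns* (adjusted p = 0.328), with *Atf4* (0.03, adjusted p = 0.822), *Tbl2* (0.09, adjusted p = 0.376) and *Nat9* (0.003, adjusted p = 0.990) between them. *Gadd45b* (0.65, adjusted p = 0.0940) passed with DESeq2 and without WT mouse 6, and *Map3k14* (−0.21, adjusted p = 0.239) passed without A226Y mouse 29.

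**Figure D5:**
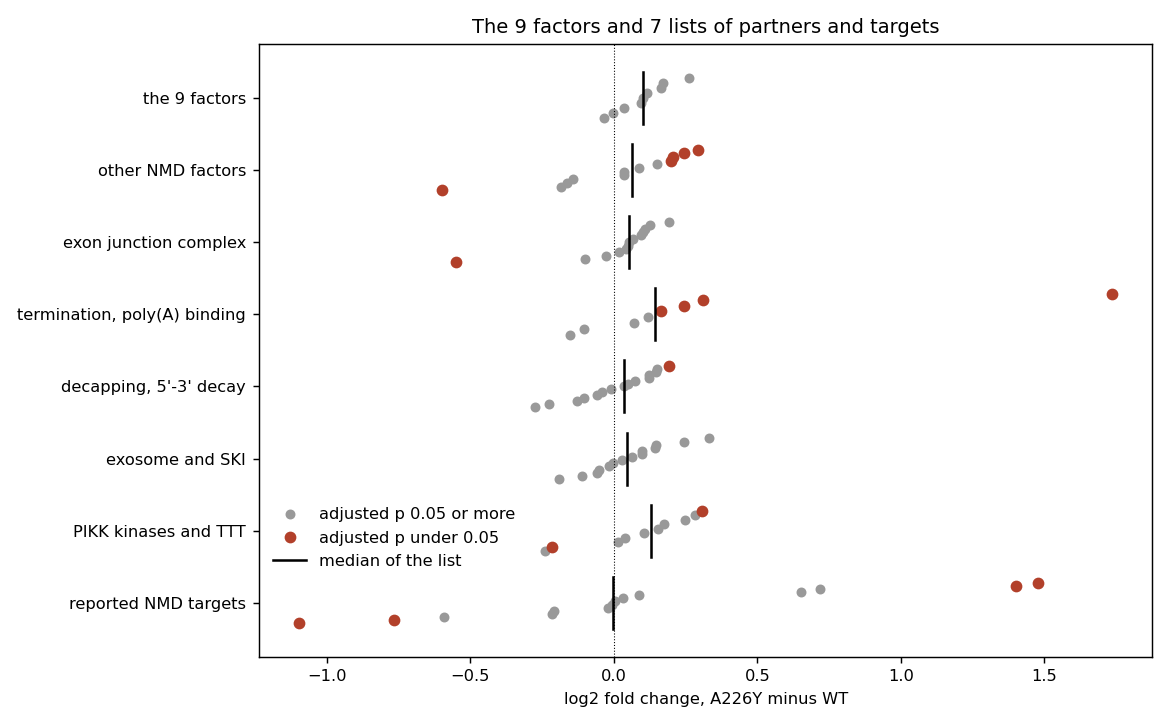
Log2 fold change of A226Y over WT (x axis) for the 9 factors and for the tested genes of 7 lists of partners and targets (y axis); each point is a gene, red points have an adjusted p under 0.05 and black bars are the medians. None of the 9 factors is red, and the medians lie between −0.002 (reported targets) and 0.14 (termination).

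Hepatocyte genes dominated the libraries, with summed levels of 8 markers between 76186 and 153890 CPM in A226Y (median 131430) and between 98423 and 178530 CPM in WT mice (median 115390), and 2 of the 8 rose and 1 fell (median log2 fold change 0.08), where 7.27% of all tested genes rose and 7.03% fell, the background for each marker list here. The 8 markers of Kupffer cells and macrophages had 278.5 to 1083 CPM in A226Y (median 376.9) and 415.6 to 841.1 CPM in WT mice (median 604.1), the median of their log2 fold changes being −0.43, and 1 of the 8 fell. The highest of these sums was again that of A226Y mouse 29. For sinusoidal endothelial markers the ranges were 263.3 to 396.2 and 279.7 to 374.3 CPM, and 0 of 8 passed. Stellate markers had 306.6 to 367.1 and 298.0 to 374.0 CPM, and 2 of 8 fell. Cholangiocyte markers had 13.9 to 32.3 and 12.8 to 27.1 CPM, and 1 of 7 tested rose, all 7 having positive values with a median of 0.36. Lymphocyte markers had 11.4 to 42.8 and 11.002 to 91.1 CPM, and 0 of 8 passed, all 8 having negative values with a median of −0.40. No marker was at 0 in every mouse. The part of these differences in the values of the 9 factors was not tested.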

How the data were processed

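The authors deposited a whole-number count of reads per Ensembl gene for each of 18 liver libraries, without normalization. How these counts were made is given in conflicting ways: the methods name RSEM with Ensembl annotation on GRCm37, and the submitters' processing notes name fastp, STAR and featureCounts with GRCm38. Reads were 50-base single-end reads, and use of strand is not given in the sources used here. Of 22524 identifiers, 22214 matched GENCODE M21 (GRCm38), from which symbols, positions, lengths and stop codons were taken.

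Genes that reached 10 counts in 50% or more of one genotype's mice were tested with edgeR 4.0.16 in R 4.3.3, using TMM scaling, the quasi-likelihood test, no covariates and Benjamini-Hochberg adjustment over 13353 genes. A standard error is the log2 fold change divided by the square root of F. Exact permutation tests used all 43758 divisions of log2 CPM (prior count 2) and correlations 100000 permutations within genotypes. The common biological coefficient of variation was 0.194. No pair of libraries of the same genotype was a duplicate (chi-square per degree of freedom at least 20.1). The methods call the wild-type mice of the histology littermates. The litters of the sequenced mice are not given in the sources used here, and p values measure the spread between these mice. Alternatives were other scalings, filters and tests (DESeq2 1.42.0, limma-voom 3.58.1), 4 surrogate variables (sva 3.50.0), lowess offsets on length or GC (13300 genes with both known, span 0.3) and leaving out each mouse. The fits were tested on simulated data.

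The members and lists were chosen with earlier results of these data known. Named were the 9 factors, *Rps2*, in each of the 7 lists the genes passing an adjusted p of 0.05 (at most 4 by size of change, or the 2 with the smallest p where none passed), and the 5 genes most like the factors. Other genes (*Nbas*, *Xrn1*, *Gspt1*, the core of the exon junction complex, the other kinases, *Telo2*, *Tti1*, *Tti2*, the 7 other substrates, *Ruvbl2*, *Lsm6*, *Lsm2* and *Exosc9*) were named after their values were seen. *Exosc6*, *Gas5*, *Snhg1*, *Snhg5*, *Snhg12* and 4 nuclear RNAs chosen as a check (*Malat1*, *Neat1*, *Meg3*, *Kcnq1ot1*) were not analysed here. One listed gene is counted in its list but not reported singly.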

Additional observations from a re-analysis of the deposited data

Results flagged for a closer look

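In 18 groups tested (9 factors in each genotype), 2 held a mouse far from the rest of its genotype, judged by the gap to its nearest neighbour over the range of log2 CPM. About 1 in 20 groups is expected to do so by chance. For *Smg5* it was A226Y mouse 15, with 27.9 CPM and a gap of 0.751 of the range, against a limit of 0.466 for 10 mice. For *Smg6* it was A226Y mouse 29, with 29.9 CPM and a gap of 0.484 of the range. Without that mouse each of the 2 genes passed the test, as given above.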

How the results depend on the processing

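No factor passed lower in A226Y under any alternative. The number of factors passing higher was 0 in the reported comparison, 2 with library size only, 1 each with 10 counts in every library, DESeq2, limma-voom and the likelihood ratio test, and 0 to 1 when single mice were left out. Library size only moves the median of all genes from −0.004 to 0.039, and 67.9% of its calls were higher (50.8% in the reported comparison). The number of factors with an unadjusted p under 0.05 was 4 in the reported comparison, 5 with library size only, 3 with the GC offset, 2 with limma-voom, the likelihood ratio test or both offsets, 1 with the length offset, 0 with surrogate variables and 1 to 4 with single mice left out. Over all 13353 tested genes, 3953 met that criterion in the reported comparison and 4006 with library size only. Limma-voom gave 3983, the likelihood ratio test 3777 and surrogate variables 2401. Of 13300 genes, 3790 met it with the GC offset, 3688 with the length offset and 3640 with both. With single mice left out it was 3522 to 4521, of 13304 to 13342 tested. Of the 9 factors, 7 kept the sign of their log2 fold change under all 31 alternatives. *Smg9* turned positive with library size only (0.0397), the length offset (0.0238, or 0.0471 with the longest transcript), the GC offset (0.0701), both offsets (0.0655) and in 7 of the 18 fits that left out 1 mouse (all 18 ran from −0.0214 to 0.0135). *Upf1* turned positive with library size only (0.0085), the GC offset (0.0332) and both offsets (0.0178). Surrogate variables left 112 genes higher and 136 lower of all tested, in place of 971 and 939, and 2 of the 17 partner genes, and the cause was not tested. Leaving out single mice gave 633 to 1268 higher, 622 to 1372 lower and 11 to 21 partner genes; the lowest counts were those without WT mouse 14 (11 partner genes, 1255 of all genes) and 21 (11 partner genes). The 2 variants with longest transcripts and with both offsets were chosen after seeing the data. No paired analysis was made, because each mouse has its own number and neither pairs nor litters are given in the sources used here. With a prior count of 0.5 each factor's difference in log2 CPM kept its sign.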

Other observations

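GENCODE M21 annotates a transcript of the nonsense-mediated decay class in 3709 of the tested genes, *Smg1*, *Smg5* and *Smg6* among them, and none in 9591. This split was chosen after the other values were seen and is given as a description, since counts per gene do not show which transcript a read came from. Of the first set, 7.98% rose and 6.50% fell in A226Y livers, and of the second, 6.996% rose and 7.25% fell. The median log2 fold changes were 0.005 and −0.010. The median exonic lengths of the 2 sets were 5305 and 4045 bases, and with the length offset the median log2 fold changes were −0.002 and 0.006, in the opposite order.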
